A study of Mus musculus with 14 samples.

Results

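The T cell receptor (TCR) complex and its proximal signalling machinery are described here through 8 genes with probe sets on the array, namely the CD3 chain genes Cd3d, Cd3e and Cd3g, the zeta chain gene Cd247, the kinase gene Zap70, the adaptor genes Lat and Lcp2, and the phospholipase gene Plcg1. They were taken from a list of 9 genes by their role in the pathway, and every probe set annotated to one of these symbols alone was read, which gave 16 probe sets. The remaining listed gene, the kinase gene Lck, had no probe set assigned in the annotation used and was not analysed here. The arrays as a whole measured 18193 genes, of which the brightest 10814 were tested, and all 8 genes were among those.

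RNA came from murine Th1 rep cells, which are CD4+ T helper 1 cells that were stimulated repeatedly in culture. They were grown from naive cells of 6- to 10-week-old OT-II mice, whose T cells carry a transgenic TCR against an ovalbumin peptide, and were restimulated with irradiated antigen-presenting cells depleted of CD90.2+ cells. After the fourth stimulation the cells took up Antagomir-31, a cholesterol-coupled antisense oligonucleotide against miR-31, or the unspecific control Antagomir-SCR, each at 1 µM for 1.5 h, and all cells of both treatments were then reactivated on plate-bound antibodies to CD3 and CD28 at 3 µg/ml with IL-12, IL-2 and an antibody to IL-4. Cells were harvested at 36 h (2 arrays for each treatment, replicates 1 and 2), 48 h (2 for each, replicates 1 and 2) and 72 h (3 for each, replicates 2, 3 and 4). By the general rule of the study's methods, which allows for exceptions, cells left the stimulus 48 h after activation. The 72 h cells may thus have been off the antibodies to CD3 and CD28, which cannot be told apart from time. Whether replicates came from separate cultures is not stated in the sources used here, and the p-values may thus rest on technical spread between arrays.

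When the TCR recognises its ligand, the αβ chains themselves carry no signal across the membrane. The CD3 gamma, delta and epsilon chains and the zeta chain do, through tyrosine motifs in their tails that are phosphorylated by a Src family kinase and then hold the kinase ZAP-70. ZAP-70 phosphorylates the membrane adaptor LAT and the cytosolic adaptor SLP-76, the product of Lcp2, which together assemble a complex that activates PLCγ1. PLCγ1 cleaves a membrane phosphoinositide, and the products open the calcium, NFAT, protein kinase C and Ras branches of the response.

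The antagomir is directed against the mature miR-31-5p strand, printed here because its seed (bases 2 to 8 in capitals) is the stretch through which a miRNA recognises most of its targets. It is encoded on mouse chromosome 4 (RefSeq, GRCm38.p6).
mmu-miR-31-5p: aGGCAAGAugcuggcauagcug
Of the 9 listed genes, 0 were in the study's list of predicted miR-31 targets, so this comparison asked whether genes outside that list moved with the treatment.

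The promoters of 5 genes are shown because the results turn on these genes: Cd3d, Cd3e and Cd3g lie beside each other on chromosome 9 and did not move alike over time, and Lat and Lcp2 showed the largest falls of the 8 genes at 72 h. In GRCm38, Cd3g spans chr9:44969572-44980431, Cd3d spans chr9:44981769-44987052 and Cd3e spans chr9:44998735-45009663, so that 1337 bases separate Cd3g from Cd3d and 11682 bases separate Cd3d from Cd3e. Each sequence runs 5′ to 3′ along the gene's own strand for 300 bases, 250 before and 50 after the start that the RefSeq table uses (GRCm38.p6). Capitals mark every match, on either strand, to an ETS core (GGAAGT), a RUNX motif (TGTGGT), a GC box (GGGCGG) or a TATA box (TATAAA).
Cd3d, chr9:44981536-44981835, plus strand: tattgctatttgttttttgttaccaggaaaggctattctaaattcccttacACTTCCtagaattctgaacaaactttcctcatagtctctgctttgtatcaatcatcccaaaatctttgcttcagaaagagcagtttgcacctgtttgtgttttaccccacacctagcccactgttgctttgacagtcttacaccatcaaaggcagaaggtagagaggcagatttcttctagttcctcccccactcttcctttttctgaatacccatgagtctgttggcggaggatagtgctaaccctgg
Cd3e, chr9:45009562-45009861, minus strand: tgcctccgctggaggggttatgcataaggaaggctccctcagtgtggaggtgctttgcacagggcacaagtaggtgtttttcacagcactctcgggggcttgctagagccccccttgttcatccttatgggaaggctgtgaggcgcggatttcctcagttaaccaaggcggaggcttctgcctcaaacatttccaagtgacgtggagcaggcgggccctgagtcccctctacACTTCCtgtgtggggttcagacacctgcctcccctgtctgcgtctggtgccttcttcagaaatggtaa
Cd3g, chr9:44980382-44980681, minus strand: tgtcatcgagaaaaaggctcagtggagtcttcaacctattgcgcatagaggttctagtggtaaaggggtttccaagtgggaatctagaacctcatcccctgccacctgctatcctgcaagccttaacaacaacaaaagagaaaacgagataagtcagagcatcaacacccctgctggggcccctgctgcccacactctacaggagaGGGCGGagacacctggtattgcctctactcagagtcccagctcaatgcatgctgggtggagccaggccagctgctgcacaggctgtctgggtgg
Lat, chr7:126369519-126369818, minus strand: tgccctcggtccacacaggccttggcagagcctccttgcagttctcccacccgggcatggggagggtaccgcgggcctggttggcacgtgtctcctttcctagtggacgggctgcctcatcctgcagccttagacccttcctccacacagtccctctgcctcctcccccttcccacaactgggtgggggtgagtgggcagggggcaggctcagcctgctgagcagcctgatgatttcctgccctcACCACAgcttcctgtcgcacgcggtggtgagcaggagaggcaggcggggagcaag
Lcp2, chr11:34046678-34046977, plus strand: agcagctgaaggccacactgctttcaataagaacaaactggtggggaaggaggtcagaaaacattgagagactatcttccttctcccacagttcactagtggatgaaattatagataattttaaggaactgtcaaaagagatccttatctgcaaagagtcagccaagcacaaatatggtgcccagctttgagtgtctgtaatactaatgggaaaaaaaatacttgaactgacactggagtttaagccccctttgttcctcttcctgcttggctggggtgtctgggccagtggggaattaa
Counted from the start, Cd3d held an ETS core at -199 to -194 and Cd3e held one at -18 to -13, both on the opposite strand. Cd3g held no ETS core but a GC box at -44 to -39, Lat held a RUNX motif on the opposite strand across its start, and Lcp2 held none of these letters in the window. Of all 32851 promoters of this length, 23.8% held the ETS core, 16.8% the RUNX motif, 35.7% the GC box and 13.6% the TATA box. A match is a string of letters and not a measured binding site.

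Facts of the whole array set bear on every value below. Per array, the median deposited intensity lay between 23.4 and 23.8 (36 h), 21.8 and 22.1 (48 h) or 27.9 and 28.4 (72 h), so treatments were compared within a time point on the deposited values, and times were compared after quantile normalization over the 14 arrays. Among genes of the labelled cell type, Thy1 read 3034 to 3821 over the 14 arrays, Ifng 8188 to 17166 and the Th1 regulator Tbx21 944 to 1885, while Cd4 read 147 to 322, Il12rb2 143 to 308, Cd27 26.4 to 102 and Cxcr3 44.4 to 64.9. Of the genes listed for other cell types, Cd79a of B cells read 12.9 to 18.5, Adgre1 of macrophages 13.6 to 16.7, Itgax of dendritic cells 12.8 to 18.4 and Cd8b1 of CD8 T cells 12.3 to 29.3, but others were brighter: the highest were Cd22 of B cells (up to 49.7), Csf1r of macrophages (up to 75.3), Cd74 of dendritic cells (up to 281) and Nkg7 of CD8 T and NK cells (up to 6536). The annotation gave a single probe set for the TCR α chain (symbol Tcra), which read 4.96 to 7.16 and was too dim to test, so nothing is said of the αβ chains.

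None of the 8 genes passed the test between treatments at any time. At 36 h, 0 of the 8 genes passed an adjusted p of 0.05 in limma (Benjamini-Hochberg over all genes tested), against 0% of all genes, and the 8 log2 differences of Antagomir-31 minus Antagomir-SCR lay between -0.046 and 0.017, with 580 of all genes (5.36%) at an unadjusted p under 0.05. At 48 h, 0 of the 8 passed, against 0% of all genes (643, or 5.95%, at an unadjusted p under 0.05), and the differences lay between -0.10 for Lat and 0.044 for Zap70. At 72 h, 0 of the 8 passed, against 1.1% of all genes, and the differences lay between -0.12 for Lat and 0.049 for Cd247. At that time 2 of the 8 genes (Cd3g and Lat) had an unadjusted p under 0.05, as did 17.6% of all genes tested. The median difference of the 8 genes at 72 h was -0.022, beside -0.0096 for all genes tested. The 95% confidence intervals of all 8 genes at 72 h lay within -0.23 and 0.15, which bounds each difference but does not show that the treatments are alike.

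**Figure D1:**
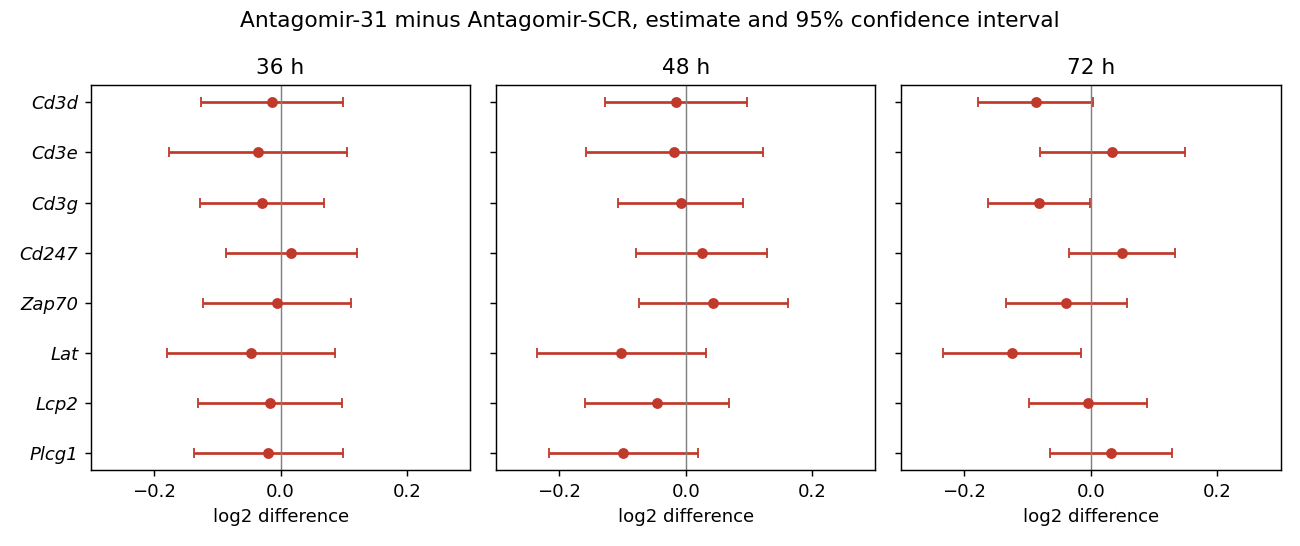
Log2 difference of Antagomir-31 minus Antagomir-SCR (x axis) for each of the 8 genes (y axis) at 36 h, 48 h and 72 h; points are limma estimates and bars are 95% confidence intervals. At 72 h the points run between -0.12 (Lat) and 0.049 (Cd247), and the intervals of Cd3g and Lat leave out 0 before adjustment for multiple testing, as an unadjusted p under 0.05 does for 17.6% of all genes.

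Among the CD3 chains, which pair as gamma-epsilon and delta-epsilon dimers, the 72 h values separated for the gamma and delta genes. Cd3d read 4984, 5206 and 5299 in Antagomir-31 cells and 5506, 5312 and 5636 in Antagomir-SCR cells (replicates 2, 3 and 4 in each case). Every Antagomir-31 array lay below every Antagomir-SCR array, but by a log2 difference of only -0.087 (SE 0.042), which missed the threshold (limma adjusted p = 0.31). Cd3g read 2751, 2778 and 2893 in Antagomir-31 cells and 2910, 2978 and 3023 in Antagomir-SCR cells, again with no overlap, for a log2 difference of -0.082 (SE 0.037, limma adjusted p = 0.28). Cd3e, the epsilon chain gene, read 707, 616 and 636 in Antagomir-31 cells and 656, 647 and 608 in Antagomir-SCR cells. The Cd3e arrays of the treatments overlapped, with a log2 difference of 0.034 (limma adjusted p = 0.78).

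The zeta chain forms a homodimer and carries most of the receptor's tyrosine motifs. Its gene was the only member whose brightest probe set stood higher without overlap at 72 h. The brightest Cd247 probe set read 1180, 1162 and 1190 in Antagomir-31 cells and 1160, 1137 and 1118 in Antagomir-SCR cells at 72 h, a log2 difference of 0.049 (limma adjusted p = 0.55). The next Cd247 probe set in brightness pointed the other way, at 467, 476 and 567 in Antagomir-31 cells and 547, 541 and 560 in Antagomir-SCR cells, with overlap, and the dimmest one tested read 56.04, 49.97 and 49.58 in Antagomir-31 cells and 45.72, 50.86 and 56.08 in Antagomir-SCR cells. The Cd247 probe sets therefore disagreed in sign, and none passed the test.

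LAT, the palmitoylated adaptor on which the signalling complex is built, gave the largest difference of the 8 genes at 36 h and 72 h, and at 48 h it stood level with Plcg1 (-0.102 for Lat and -0.099 for Plcg1 as deposited, -0.094 and -0.102 after quantile normalization). At 72 h Lat read 1634, 1620 and 1695 in Antagomir-31 cells and 1718, 1767 and 1916 in Antagomir-SCR cells. No array of one treatment reached into the other, and the log2 difference was -0.12 (SE 0.050), a fold of 0.917, with an unadjusted p of 0.028 and a limma adjusted p of 0.23. At 48 h Lat read 2586 and 2449 in Antagomir-31 cells and 2646 and 2756 in Antagomir-SCR cells, also without overlap (log2 difference -0.10, limma adjusted p = 0.87). At 36 h it read 2424 and 2255 in Antagomir-31 cells and 2382 and 2446 in Antagomir-SCR cells, with overlap. The average over the 3 times was -0.091 on the log2 scale for Lat (limma adjusted p = 0.40), and 0 of the 8 genes passed on that average, against 0.074% of all genes.

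On their brightest probe sets, the other adaptor, the kinase and the phospholipase showed no separation at 72 h. Lcp2 read 1694, 1655 and 1640 in Antagomir-31 cells and 1676, 1689 and 1640 in Antagomir-SCR cells, which is a log2 difference of -0.0048 (limma adjusted p = 0.97). Zap70 read 729, 699 and 700 in Antagomir-31 cells and 710, 705 and 773 in Antagomir-SCR cells (-0.039, limma adjusted p = 0.69). Plcg1 read 461, 463 and 431 in Antagomir-31 cells and 448, 432 and 444 in Antagomir-SCR cells (0.032, limma adjusted p = 0.76). All 3 overlapped between the treatments on these probe sets. The next Zap70 probe set in brightness pointed the other way. It read 590, 574 and 564 in Antagomir-31 cells and 558, 550 and 561 in Antagomir-SCR cells, without overlap (0.050, limma adjusted p = 0.61). The dimmest Zap70 probe set gave 0.0026, and the other Lcp2 probe set gave 0.067, both with overlap. At 48 h the Plcg1 arrays had not overlapped, at 326 and 335 in Antagomir-31 cells against 352 and 356 in Antagomir-SCR cells (log2 difference -0.099, limma adjusted p = 0.85).

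**Figure D2:**
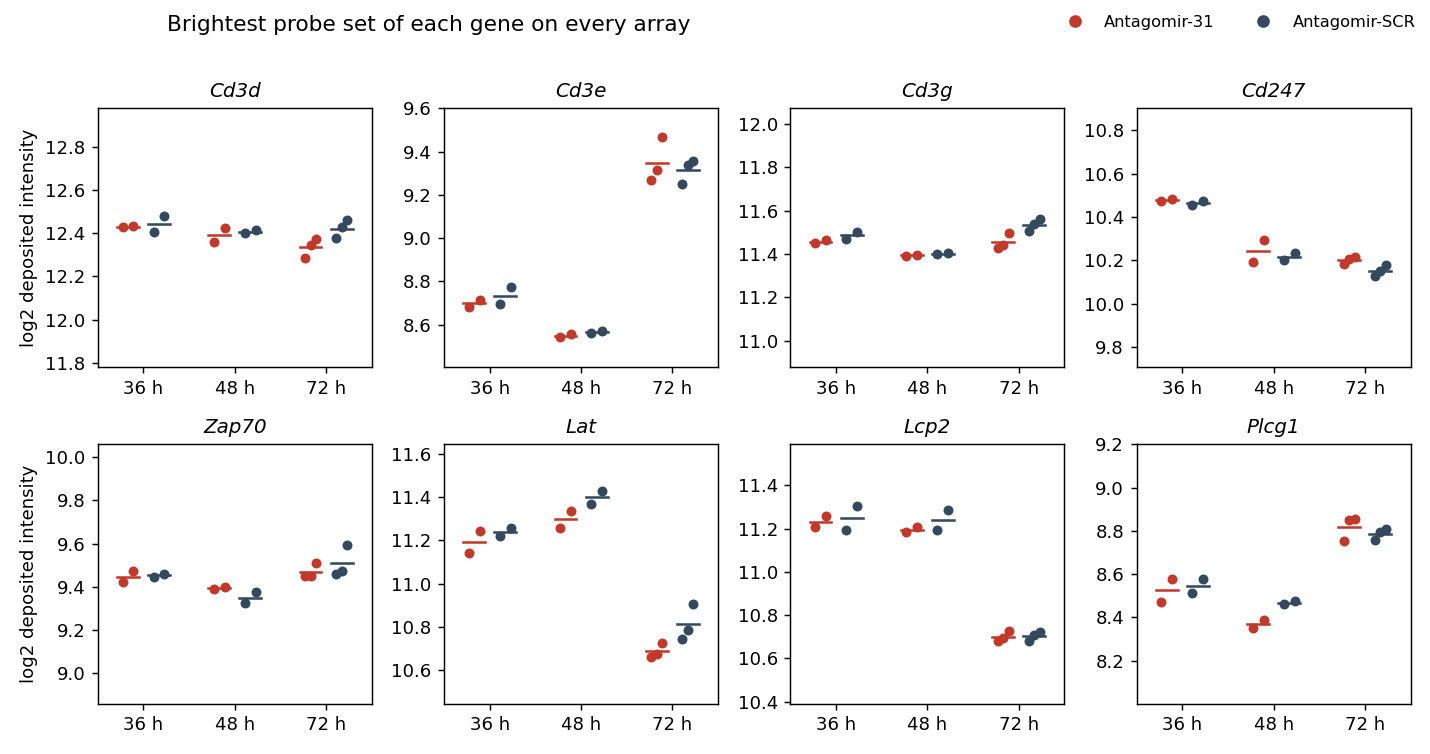
Log2 deposited intensity (y axis, each panel spanning 1.2 log2 units) of the brightest probe set of each gene on every array, at 36 h, 48 h and 72 h (x axis); each point is an array, red for Antagomir-31 and dark for Antagomir-SCR, and short lines are group means. Treatments lie close together at each time, while Cd3e is highest and Lat and Lcp2 are lowest at 72 h.

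Arrays that do not overlap were common among all genes. At 72 h, 3 of the 8 genes (Cd3d, Cd3g and Lat) were lower on every Antagomir-31 array, against 14.8% of all genes tested, and 1 (Cd247) was higher on every Antagomir-31 array, against 9.43%. At 48 h, 4 of the 8 (Cd3e, Cd3g, Lat and Plcg1) were lower on both Antagomir-31 arrays, against 19.8% of all genes, and 1 was higher, against 13.8%, which was Zap70 at 675 and 671 in Antagomir-31 cells and 663 and 642 in Antagomir-SCR cells. At 36 h, 1 (Cd3g) was lower, against 14%, and 1 (Cd247) was higher, against 15.3%. The difference between the effects at 72 h and 36 h passed the test for none of the 8 genes (0 called, against 0.0185% of all genes, lowest limma adjusted p = 0.71), nor did that between 72 h and 48 h (0 called, against 0.037%, lowest limma adjusted p = 0.55). At the level of single probe sets, 13 of the 16 had a mean log2 of at least 6, and 0 of these passed at 72 h, against 3.19% of all such probe sets. The remaining 3, a probe set of Cd247 and a pair for Plcg1, never exceeded an intensity of 27.2.

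Several summed list levels separated the treatments at 72 h, in both directions. The sum of the 6 T cell genes on the list other than the genes described here came mostly from Thy1 and Cd2. It ran over 6248 to 6547 in Antagomir-31 cells and 6557 to 6633 in Antagomir-SCR cells. The sum of the 7 Th1 genes ran over 12985 to 13440 in Antagomir-31 cells and 13617 to 13793 in Antagomir-SCR cells. Most of the Th1 sum came from Ifng, with a geometric mean of 8381 in Antagomir-31 cells and 8578 in Antagomir-SCR cells. Of the 7 Th1 genes, 0 passed the test, and 1, Twist1, had a positive log2 difference (0.13). Higher in Antagomir-31 cells was the sum of the 19 adaptors and exchange factors (8463 to 8556, against 8044 to 8289 in Antagomir-SCR cells). So was that of the 20 negative regulators (15843 to 15988, against 15244 to 15680 in Antagomir-SCR cells). Its brightest gene was Ptprc, which also has an activating role, with a geometric mean of 6463 in Antagomir-31 cells and 6080 in Antagomir-SCR cells. The part of Ptprc in this separation was not tested. Of the 19 negative regulators tested, 12 had a positive log2 difference at 72 h and 0 passed the test. Their median was 0.062, beside -0.0096 for all genes tested, whose share of positive differences was not counted. How often such sums separate for other sets of genes was not tested. The sum of the 7 CD8 T and NK cell markers, nearly all of it from Nkg7, Klrk1 and Klrd1, ran over 7360 to 7732 in Antagomir-31 cells and 7790 to 8028 in Antagomir-SCR cells. The sum of the 7 dendritic cell markers ran over 345 to 416 in Antagomir-31 cells and 433 to 451 in Antagomir-SCR cells, most of it from Cd74, while Itgax, Xcr1 and H2-Aa stayed below 19.8 on every array. The sums of the 6 B cell markers overlapped, at 164 to 180 in Antagomir-31 cells and 163 to 169 in Antagomir-SCR cells, and those of the 7 macrophage markers ran over 242 to 254 in Antagomir-31 cells and 235 to 242 in Antagomir-SCR cells. The upper quartile of the intensities also stood lower on all 3 Antagomir-31 arrays (the lowest at 129) than on all 3 Antagomir-SCR arrays (131 to 133). The part of these in the Cd3d, Cd3g and Lat values was not tested, and in bulk RNA fewer cells of a type and less RNA per cell cannot be told apart.

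The genes around the 8 were counted from lists of their pathway roles. At 72 h, 0 of 6 coreceptor and costimulation genes, 0 of 5 other proximal kinases, 0 of 19 adaptors and exchange factors and 0 of 19 negative regulators passed between the treatments, beside the 1.1% of all genes. Of 18 genes on the branches downstream of PLCγ1, 1 passed, which was Malt1, the paracaspase of the CARMA1-BCL10-MALT1 complex that carries the signal to NF-κB. Malt1 read 346, 314 and 323 in Antagomir-31 cells and 263, 241 and 272 in Antagomir-SCR cells at 72 h. All Antagomir-31 arrays lay above all Antagomir-SCR arrays, with a log2 difference of 0.34 (SE 0.068, limma adjusted p = 0.037). The call was lost when any one of the 6 arrays of that time was left out (limma adjusted p 0.051 to 0.15) and under 5 of 10 other settings, and the mean of all Malt1 probe sets gave a log2 difference of 0.13.

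Other genes of these lists are given by their values, since they missed the threshold at 72 h. Among the adaptors and exchange factors the smallest p-values belonged to the Ras exchange factors Sos2 (log2 difference 0.17) and Rasgrp1 (0.15), to Grap2, which encodes the GADS adaptor that links LAT to SLP-76 (0.14), and to the Rac exchange factor Arhgef6 (0.10). The median of the 19 was 0.058, beside -0.0096 for all genes tested, and 14 of the 19 were positive. The share of positive differences over all genes was not counted. Of these 19, 5 had an unadjusted p under 0.05 in limma, as did 17.6% of all genes tested. Among negative regulators the smallest p-values belonged to Sla, which encodes the SLAP adaptor (0.13), and to the phosphatase genes Ubash3b (-0.18), Ubash3a (0.19) and Ptprc (0.088). Of these, Ptprc, encoding CD45, also has an activating role. Downstream of PLCγ1, Prkcd stood at -0.28 (limma adjusted p = 0.063), Nfatc2 at 0.14 and Ppp3ca, a catalytic subunit of calcineurin, at 0.11. Among kinases, Map4k1 stood at -0.12, Fyn at 0.091, Pdpk1 at 0.092 and Csk at -0.073. On the list of coreceptor and costimulation genes, Cd2 stood at -0.11, Icos at -0.092, Cd5 at 0.089 and Cd28 at 0.041. The study treated Cd28 and Ppp3ca as putative miR-31 targets. By qRT-PCR at 72 h, a different measure, it reported both as significantly higher after Antagomir-31.

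After quantile normalization, all of these genes but Plcg1 had a change over time that exceeded their treatment differences. Plcg1 changed by -0.067, 0.069 and 0.0025 over the 3 steps below, against -0.099 between the treatments at 48 h, and on the deposited scaling Cd3d changed by -0.036, -0.022 and -0.058 over them. Between 36 h and 48 h, 2 of the 8 passed in limma (Cd247 lower and Lat higher), against 43.7% of all genes tested (23.4% higher and 20.4% lower). Between 48 h and 72 h, 7 of the 8 passed (1 higher and 6 lower), against 76.9% (38.8% higher and 38% lower), and between 36 h and 72 h again 7 of the 8 passed (1 higher and 6 lower), against 79% (39.7% higher and 39.2% lower). The later totals lie near those backgrounds, so that the directions and sizes are described rather than the counts. Removal from the stimulus at 48 h, if it was done here, cannot be told apart from time in the steps to 72 h. The arrays of different times appear to have been scaled apart by the authors, and time and that scaling cannot be told apart: on the deposited scaling the median of all genes shifted by 0.33 on the log2 scale between 48 h and 72 h and by 0.27 between 36 h and 72 h, against 0.0034 and 0.0016 after quantile normalization. As a sign of RNA integrity, the actin control probe sets had a log2 ratio of 3′ over 5′ signal between 0.32 and 0.43 (36 h), 0.37 and 0.41 (48 h) or 0.21 and 0.27 (72 h), while that of the Gapdh controls lay between -0.046 and -0.028 (36 h), -0.024 and -0.012 (48 h) or -0.0052 and 0.088 (72 h), and the part of either in the changes over time was not tested.

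The adaptors fell most at 72 h. Lat, whose values stand above for each array, changed by 0.21 on the log2 scale between 36 h and 48 h (limma adjusted p = 0.0020) and by -0.83 (SE 0.040, limma adjusted p = 4.49e-10) between 48 h and 72 h, a fold of 0.564. On the deposited scaling these Lat changes were 0.13 and -0.60. Lcp2 read 2363 and 2449 in Antagomir-31 cells and 2527 and 2344 in Antagomir-SCR cells at 36 h, and 2326 and 2364 in Antagomir-31 cells and 2341 and 2501 in Antagomir-SCR cells at 48 h. Each of these lay above all 6 Lcp2 arrays at 72 h, and the change between 48 h and 72 h was -0.76 (SE 0.037, limma adjusted p = 5.87e-10), or -0.52 on the deposited scaling. The other and dimmer Lcp2 probe set gave -0.75 for the same step.

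The 3 neighbouring CD3 genes parted over time. Cd3e read 411 and 420 in Antagomir-31 cells and 437 and 414 in Antagomir-SCR cells at 36 h, and 376 and 372 in Antagomir-31 cells and 378 and 380 in Antagomir-SCR cells at 48 h, so that all 6 arrays at 72 h (608 to 707) lay above all 8 earlier ones. The Cd3e change between 48 h and 72 h was 0.48 (SE 0.042, limma adjusted p = 2.19e-07), and 0.77 on the deposited scaling. Cd3d changed by -0.23 (SE 0.034, limma adjusted p = 3.51e-05) over the same step, but by only -0.022 as deposited. Cd3g changed by -0.12 (SE 0.029, limma adjusted p = 0.0016), and by 0.098 as deposited, so that its sign depends on the scaling. Set against the median of all genes, Cd3g stood at -0.13 after quantile normalization and -0.23 as deposited, and Cd3d at -0.23 and -0.35.

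The ratios between these genes within one array moved less with the scaling than their levels did, though quantile normalization moves bright and dim probe sets unequally. As deposited, the log2 ratio of the Cd3e to the Cd3d probe set lay between -3.78 and -3.63 (36 h), -3.88 and -3.80 (48 h) or -3.21 and -2.82 (72 h), and after quantile normalization between -3.73 and -3.58 (36 h), -3.84 and -3.76 (48 h) or -3.28 and -2.86 (72 h). The 72 h range lay apart from both earlier ranges, under either treatment and either scaling. The deposited log2 ratio of Cd3e to Cd3g lay between -2.81 and -2.70 (36 h), -2.85 and -2.83 (48 h) or -2.31 and -1.96 (72 h). That of Cd3d to Cd3g moved less, between 0.94 and 0.98 (36 h), 0.97 and 1.03 (48 h) or 0.83 and 0.92 (72 h). The sizes of such ratios carry the binding of different probes and are no ratio of transcripts, and each of these genes has 1 probe set, so that no second probe set could be read beside it.

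**Figure D3:**
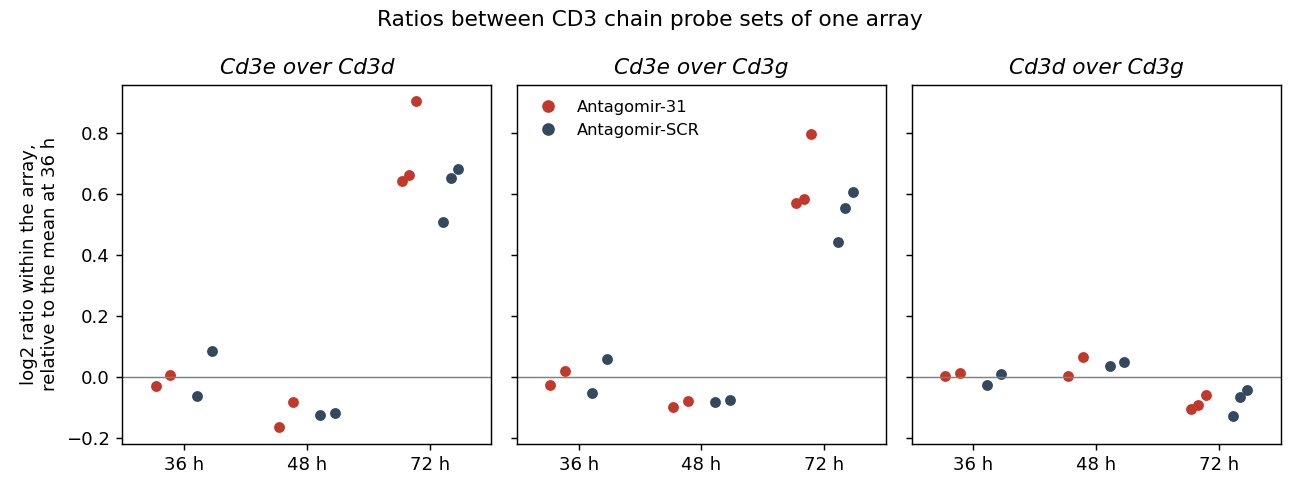
Log2 ratio of the deposited intensities of 2 CD3 probe sets of the same array (y axis, relative to the mean at 36 h) at 36 h, 48 h and 72 h (x axis), each point an array, red for Antagomir-31 and dark for Antagomir-SCR. Cd3e over Cd3d and Cd3e over Cd3g stand higher on all 6 arrays at 72 h than on all 8 earlier arrays, while Cd3d over Cd3g moves less.

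The zeta chain gene fell in steps on its brightest probe set after quantile normalization. The brightest Cd247 probe set changed by -0.17 between 36 h and 48 h (limma adjusted p = 0.0015) and by -0.31 between 48 h and 72 h (limma adjusted p = 6.59e-07), though this later step was -0.052 as deposited. Between 36 h and 72 h its change was -0.48 (limma adjusted p = 7.26e-09), or -0.30 as deposited. The other tested Cd247 probe sets changed by -0.22 (the next in brightness, 0.014 as deposited) and by -1.37 (the dimmest, -1.04 as deposited) over that interval. Between 36 h and 48 h these probe sets changed by 0.060 and -0.15, and neither passed. The size thus depends on the probe set, and as deposited so does the sign. Zap70 changed by -0.18 between 36 h and 72 h (limma adjusted p = 5.43e-04), but by 0.039 as deposited, and its other probe sets gave -0.33 and -0.089. Plcg1 was the member nearest to the median of all genes, at 0.0025 between 36 h and 72 h (limma adjusted p = 0.95), or 0.27 as deposited, where the median of all genes is also 0.27.

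**Figure D4:**
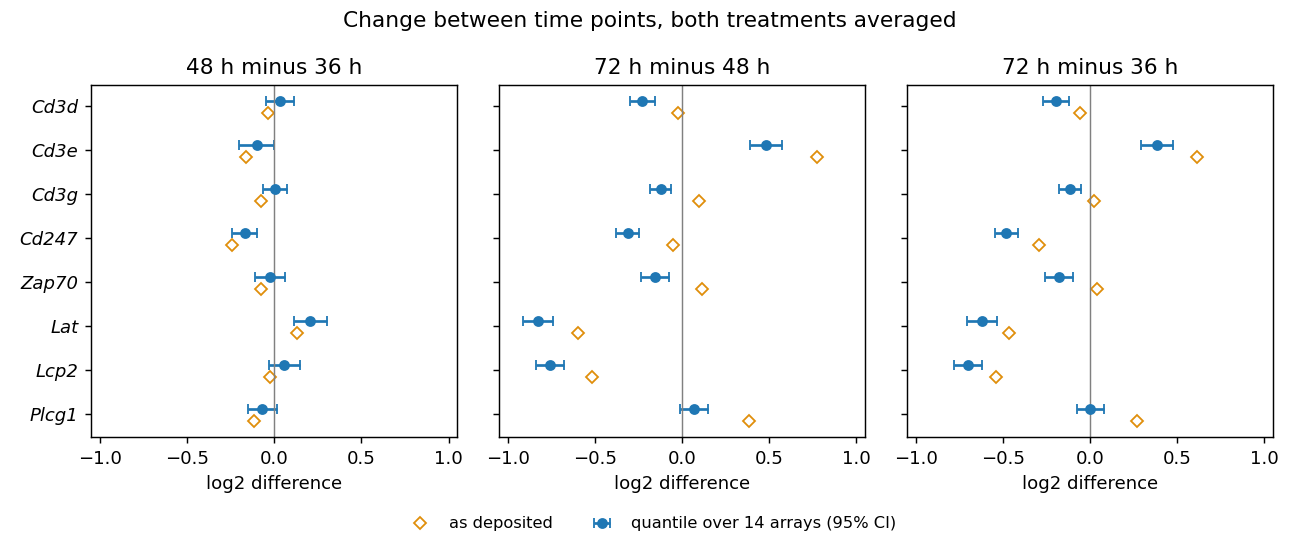
Log2 difference between time points (x axis) for each of the 8 genes (y axis), both treatments weighted equally; filled circles with 95% confidence intervals use quantile normalization over the 14 arrays and open diamonds the deposited scaling. Between 48 h and 72 h Cd3e lies to the right and Lat and Lcp2 to the left under both scalings, while Cd3g and Zap70 change sign.

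Across the 14 arrays after quantile normalization, the log2 values of Cd3d and Cd3g had a Pearson r of 0.97, those of Lat and Lcp2 an r of 0.96, and those of Cd3e and Cd3d an r of -0.95. These coefficients describe arrays that fall into 3 times scaled apart, and most of the shared spread lies between the times. With the 6 group means removed, r was 0.64 for Cd3d and Cd3g, -0.34 for Lat and Lcp2 and -0.69 for Cd3e and Cd3d over the same 14 arrays. By the first measure, the tested genes most like each member were Rpa3 for Cd3d (r 0.98), Rnf14 for Cd3e (0.99), Slc35b4 for Cd3g (0.98), Mier3 for Cd247 (0.99), Galnt11 for Lat (0.99) and Ptgfrn for Lcp2 (0.996). Zap70 (4930523C07Rik, 0.95) and Plcg1 (Trim21, 0.83) had less close neighbours.

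The wider pathway also moved with time, in both directions. Between 36 h and 72 h, 39.7% of all genes tested were called higher and 39.2% lower, and the counts of the lists stand beside these shares. Of 19 adaptors and exchange factors, 12 rose and 6 fell, with a median log2 change of 0.32 beside 0.0016 for all genes. On the deposited scaling the median of the 19 was 0.65, beside 0.27 for all genes. All 12 that rose and 5 of the 6 that fell kept their sign there. That scaling lifts most genes, so the kept signs of the 12 were nearly fixed in advance. Of 19 negative regulators, 4 rose and 12 fell, with a median of -0.31. As deposited, 9 of the 12 that fell were also negative, and the median of the 19 was 0.0063, beside 0.27 for all genes. These counts depend on which genes were listed. Ptprc, which also has an activating role, was among those that fell (-0.43), and Csk, listed with the other proximal kinases, rose by 0.49. The coreceptors and costimulatory genes had 2 higher and 3 lower of 6, the other proximal kinases 2 higher and 2 lower of 5, and the branches downstream of PLCγ1 8 higher and 8 lower of 18.

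The largest of these changes, picked after their values were seen, included Sla, Cd5 and Themis. Sla read 2398 and 2370 in Antagomir-31 cells and 2353 and 2408 in Antagomir-SCR cells at 36 h, 1914 and 1825 in Antagomir-31 cells and 1857 and 1936 in Antagomir-SCR cells at 48 h, and 326, 331 and 316 in Antagomir-31 cells and 295, 288 and 306 in Antagomir-SCR cells at 72 h. Its log2 change between 36 h and 72 h was -3.16 (limma adjusted p = 8.68e-17, and -2.94 as deposited), and the SLAP protein is known for drawing CBL to the zeta chain and lowering receptor levels. Cd5, a surface receptor that tunes TCR signalling down, read 1562 and 1624 in Antagomir-31 cells and 1723 and 1772 in Antagomir-SCR cells at 36 h, 1394 and 1361 in Antagomir-31 cells and 1377 and 1596 in Antagomir-SCR cells at 48 h, and 236, 206 and 259 in Antagomir-31 cells and 214, 219 and 224 in Antagomir-SCR cells at 72 h, a log2 change of -3.14 between 36 h and 72 h. All 6 arrays at 72 h lay far below all 8 earlier ones for both genes. Themis, a regulator of TCR signal strength best known from thymocyte selection, went the other way, between 315 and 336 (36 h), 353 and 370 (48 h) or 1302 and 1430 (72 h) over all arrays of a time, a log2 change of 1.85 between 36 h and 72 h. The phosphatase gene Ptpn6, which encodes SHP-1, changed by -1.31 over that interval, Malt1 by -2.01 and Rasgrp1 by 1.08.

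**Figure D5:**
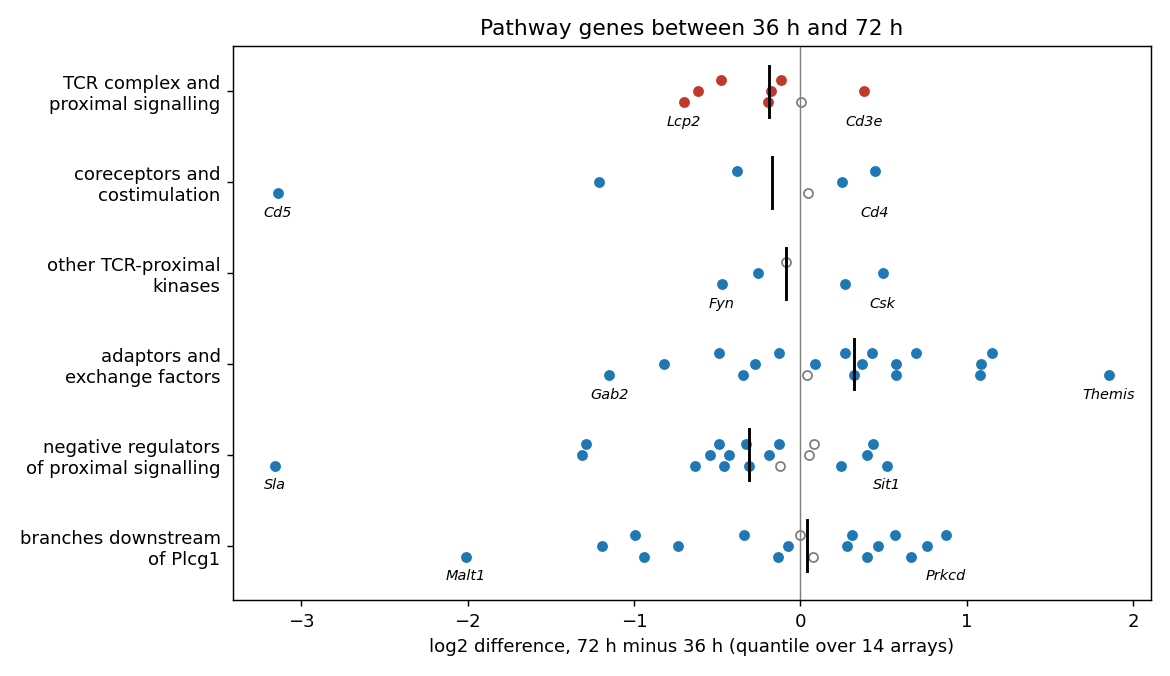
Log2 difference of 72 h minus 36 h (x axis, quantile normalization over the 14 arrays) for the 8 genes (red) and for the tested genes of 5 pathway lists (blue), 1 point a gene; filled points passed an adjusted p of 0.05 in limma, open points did not, and vertical bars are list medians. The 8 genes lie between -0.70 (Lcp2) and 0.38 (Cd3e), and Sla (-3.16) and Cd5 (-3.14) lie farthest to the left.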

How the data were processed

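The arrays were read with GCOS and normalized by RMA with the affy R package by the authors (versions not given in the sources used here), and the deposited columns hold intensities that are not logged, from which log2 was computed. Array medians differed less within a time point than between times, so the arrays seem to have been normalized by time point. Of 45101 probe sets, 64 were controls, 34945 had 1 gene symbol and were used, 932 had several and 9160 had none. A RefSeq gene was matched for 34742, and 1 symbol was updated. A gene took its highest probe set on each array, a rule the study used for gene sets, and the brightest 59.4% of 18193 genes were kept.

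Tests used limma 3.58.1 in R 4.3.3 (Python 3.11.15 for tables), with 1 fit of 6 groups over 14 arrays and Benjamini-Hochberg adjustment over all genes tested, and the fit was tested on simulated data. Treatments were compared on the deposited scaling and times after quantile normalization over the 14 arrays. The number of arrays limits the precision. Alternatives varied the collapse to genes, the filter, the scaling, the prior variance, the arrays in the fit, the probe sets, the pairing and the replicates.

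The genes and lists were chosen with earlier results of these data known. Named genes are all the members, up to 4 genes of each list with the smallest p at 72 h and the genes whose profile is most like each member. Genes named for their change over time were chosen after their values were seen. Some items are not reported here.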

Additional observations from a re-analysis of the deposited data

How the results depend on the processing

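The count of 0 of the 8 genes held at each time, on the average and for both differences between times under every alternative run and with any single array left out. Between 36 h and 48 h the count was 4 on the deposited scaling, against 2 after quantile normalization; counts for the other steps ran from 6 to 8 (48 h to 72 h) and from 5 to 8 (36 h to 72 h). With the mean of all probe sets, the difference at 72 h was -0.024 for Cd247, 0.0046 for Zap70 and 0.031 for Lcp2, and Plcg1 changed by -0.15 between 48 h and 72 h and by -0.16 between 36 h and 72 h. On the deposited scaling, the change between 36 h and 48 h was -0.036 for Cd3d, -0.075 for Cd3g and -0.023 for Lcp2, that between 48 h and 72 h was 0.098 for Cd3g and 0.12 for Zap70, and that between 36 h and 72 h was 0.023 for Cd3g and 0.039 for Zap70. With arrays centred on the median, Zap70 changed by 0.029 between 36 h and 48 h. The cause of these turns was not tested. Leaving out 1 array each gave -0.024 to 0.075 for Cd3e, -0.018 to 0.0052 for Lcp2 and -0.063 to 0.0035 for Zap70 at 72 h, -0.0032 to 0.018 for Cd3g between 36 h and 48 h and -0.025 to 0.030 for Plcg1 between 36 h and 72 h.

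Over all genes, 119 passed at 72 h, against 16 with no filter, 286 with a mean log2 of at least 6, 65 with the mean of all probe sets, 27 with only the 72 h arrays, 426 where the prior variance follows a trend, and 11 to 101 without single arrays. On the average 8 passed, against 0 to 39 under the alternatives. For single probe sets 422 passed at 72 h, against 13 to 715 under the alternatives, and up to 798 when runs without single arrays are included.

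Same-numbered arrays did not deviate together (r 0.065 at 36 h, -0.17 at 48 h, and 0.019, -0.067 and 0.058 at 72 h). With the replicate block, 0 of the 8 genes passed at every time and on the average, 2, 7 and 7 passed for the changes over time, and 24 genes of all passed at 72 h. A crossed pairing at 48 h, added after seeing the data, called 0 of the 8 and 0 of all genes.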
